A study of Homo sapiens with 9 samples.

Results

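The 10 genes described here encode factors that put on or keep up repressive chromatin marks: DNMT1, DNMT3A, DNMT3B, UHRF1, HELLS, EZH2, EED, SUZ12, SETDB1 and TRIM28. They were picked by symbol, from 58395 gene identifiers in the files, after Ensembl identifiers had been matched to GENCODE symbols. All 10 were found and all 10 passed the filter on low counts, as did 16761 genes in all. The question was how their RNA levels differed between cells given a control siRNA and cells given an siRNA against ZIP7, and whether genes that are silent in control cells appeared with the knockdown. ZIP7, encoded by SLC39A7, is a transporter that moves zinc out of the endoplasmic reticulum. The cells were MDA-MB-231, a human triple-negative breast cancer line with a mesenchymal character, and RNA was taken 96 h after transfection. There were 3 libraries with the non-targeting control siRNA (siNC), 3 with the first ZIP7 siRNA (siZIP7_1) and 3 with the second (siZIP7_2), 9 in all. Nothing in the labels says whether the 3 libraries of a group came from separate cultures, so the p-values measure the spread between these libraries, which may be technical.

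DNA methylation at CpG sites is copied after replication by DNMT1, which UHRF1 brings to newly replicated DNA, and the remodeler HELLS helps methylation of packed chromatin. DNMT3A and DNMT3B set new methylation. Polycomb repressive complex 2 (PRC2) methylates lysine 27 of histone H3 (H3K27) through its catalytic subunit EZH2, which needs EED and SUZ12 to work. TRIM28 is recruited by KRAB zinc finger proteins and brings SETDB1, which methylates lysine 9 of histone H3 (H3K9), to transposable elements and imprinted regions.

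Several of these genes are known as targets of E2F, the family of transcription factors that drive genes of DNA replication. RefSeq promoters, running from 250 bases before to 50 after an annotated start on GRCh38.p14, were at hand for 9 of the 10 genes (18 promoters) and not for TRIM28. They were searched on both strands for an E2F word, that is TTTGGCG or TTTCCCG or TTTCGCG or TTTGCCG. One lay in a promoter of 5 of the 9 genes (DNMT1, UHRF1, HELLS, EZH2 and SUZ12), against 10.4% of 27305 genes with promoters of the same length. A gene with more annotated starts has more sequence to be found in. The promoters of 4 genes with a match that fell with both siRNAs are printed because the words stand close to the start, and that of DNMT3B because this gene rose with both siRNAs. The printed set was thus picked with the changes in RNA known. The capitals mark the E2F words, and the printed strand is that of the gene.

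UHRF1, chr19:4909251-4909550, plus strand: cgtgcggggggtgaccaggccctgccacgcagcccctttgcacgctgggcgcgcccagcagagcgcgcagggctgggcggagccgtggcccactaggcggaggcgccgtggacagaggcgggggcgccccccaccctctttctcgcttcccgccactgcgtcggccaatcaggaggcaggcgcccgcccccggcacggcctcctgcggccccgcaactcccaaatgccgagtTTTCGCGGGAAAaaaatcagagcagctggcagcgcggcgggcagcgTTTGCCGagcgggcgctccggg

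HELLS, chr10:94545538-94545837, plus strand: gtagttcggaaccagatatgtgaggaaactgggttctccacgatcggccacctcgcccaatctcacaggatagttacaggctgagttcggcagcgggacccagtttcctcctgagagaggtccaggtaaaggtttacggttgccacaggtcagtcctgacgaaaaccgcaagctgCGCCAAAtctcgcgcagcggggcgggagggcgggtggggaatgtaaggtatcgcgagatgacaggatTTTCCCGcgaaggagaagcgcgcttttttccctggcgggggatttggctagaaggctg

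DNMT1, chr19:10194904-10195203, minus strand: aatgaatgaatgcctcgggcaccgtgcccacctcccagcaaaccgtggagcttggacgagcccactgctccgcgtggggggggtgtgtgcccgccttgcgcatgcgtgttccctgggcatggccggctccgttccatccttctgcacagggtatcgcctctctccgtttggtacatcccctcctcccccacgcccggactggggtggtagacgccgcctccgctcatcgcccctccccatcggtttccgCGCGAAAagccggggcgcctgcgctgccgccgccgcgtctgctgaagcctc

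EZH2, chr7:148884242-148884541, minus strand: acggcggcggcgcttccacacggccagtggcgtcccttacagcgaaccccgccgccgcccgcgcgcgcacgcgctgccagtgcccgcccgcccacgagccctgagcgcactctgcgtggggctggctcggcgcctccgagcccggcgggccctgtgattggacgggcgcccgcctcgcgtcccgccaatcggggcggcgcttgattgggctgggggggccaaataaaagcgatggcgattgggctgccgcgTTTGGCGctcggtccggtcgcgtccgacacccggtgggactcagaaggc

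DNMT3B, chr20:32779602-32779901, plus strand: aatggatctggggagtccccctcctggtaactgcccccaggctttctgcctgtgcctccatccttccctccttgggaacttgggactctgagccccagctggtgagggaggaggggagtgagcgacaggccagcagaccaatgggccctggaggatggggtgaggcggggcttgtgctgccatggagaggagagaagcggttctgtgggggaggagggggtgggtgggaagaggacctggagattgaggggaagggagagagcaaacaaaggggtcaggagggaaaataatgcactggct

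Positions are those of the first base of a match, with 1 for the first transcribed base. UHRF1 held 3 matches, at -18, -13 and 29, the first pair of which share bases. HELLS held one at -75 and one at -8. DNMT1 held one at -1, across its start, and EZH2 one at 2. Another UHRF1 promoter, not printed, held a match at -160 and that of SUZ12 one at -189. None of these words lay in the DNMT3B promoter printed, nor in those of DNMT3A, EED or SETDB1. EED and SETDB1 fell with both siRNAs, and SUZ12, which held a word, did not pass with siZIP7_1. The windows printed held 3 CpG for DNMT3B, 22 for HELLS, 30 for DNMT1, 36 for UHRF1 and 46 for EZH2. The RefSeq start lies 30 bases inside the GENCODE gene for EZH2, but 6421 inside for UHRF1, 17467 for DNMT3B, 36333 for DNMT1 and 44354 for HELLS, so other starts exist whose sequence was not searched, and which start these cells use was not tested. The CCAAT box, searched as CCAAT, was found in promoters of 6 of the 9 genes against 39.7% of all genes, 4 times in EZH2. The cell cycle word TTTGAA (CHR) was found in 2 of the 9 against 18.2%. These matches describe letters only and show no binding, and whether they go with the changes in RNA was not tested.

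The libraries held 24153785 to 30454419 reads on genes. CPM stands here for a count divided by the library total, corrected with TMM factors. Fold changes come from a quasi-likelihood fit of all 9 libraries in edgeR, with Benjamini-Hochberg adjustment over 16761 genes and a threshold of 0.05. The targeted gene was lower in every knockdown library. SLC39A7 stood at 321, 343 and 322 CPM with siNC, at 35.4, 32.9 and 38.6 after siZIP7_1 and at 20.5, 19.5 and 17.6 after siZIP7_2, which left 10.9% and 5.84% of the siNC level. Markers of MDA-MB-231 cells (VIM, CD44, EGFR, KRT18, AXL and CAV1) were expressed in all libraries, and the hormone receptors were near 0, ESR1 with 2 to 15 reads, the most with siZIP7_2, and PGR with at most 2. Among markers of other cells, CD3E of T cells had at most 1 read and DCN of fibroblasts at most 2. Others had more. PTPRC of blood cells had 7 to 28 reads (means 0.402, 0.875 and 0.327 CPM with siNC, siZIP7_1 and siZIP7_2). LUM of fibroblasts had 22 to 85 (1.18, 2.72 and 1.75 CPM). The 5 fibroblast markers summed to 53.1 to 59.3 CPM with siNC, 111 to 118 with siZIP7_1 and 175 to 197 with siZIP7_2, nearly all of it COL1A1. The endothelial marker PECAM1 averaged 3.02 CPM with siNC, 0.102 with siZIP7_1 and 8.63 with siZIP7_2. The part of these cells in the results below was not tested.

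A large part of the transcriptome differed between any pair of groups. Of all genes tested, 70.7% passed the threshold with siZIP7_1 against siNC (34.8% higher and 35.9% lower) and 77.8% with siZIP7_2 against siNC (38.5% higher and 39.3% lower). Between the siRNAs, 78.7% passed. A call in this study is therefore common, and the size of a difference says more than the call. Both contrasts with siNC use the same 3 siNC libraries and are not independent.

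Most of the silencing factors were lower with the knockdown. With siZIP7_1, 8 of the 10 fell, 1 rose and 1 did not pass. With siZIP7_2, 8 fell and 2 rose. In one direction with both siRNAs, 7 fell (DNMT1, UHRF1, HELLS, EZH2, EED, SETDB1 and TRIM28) and 1 rose (DNMT3B), where 20.8% of all genes were lower and 17.7% higher with both. The median over the 10 log2 fold changes was -0.41 for siZIP7_1 and -0.60 for siZIP7_2, against -0.01 and -0.00 over all genes tested. In these bulk samples, fewer cells expressing a gene and less RNA per cell cannot be told apart.

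**Figure D1:**
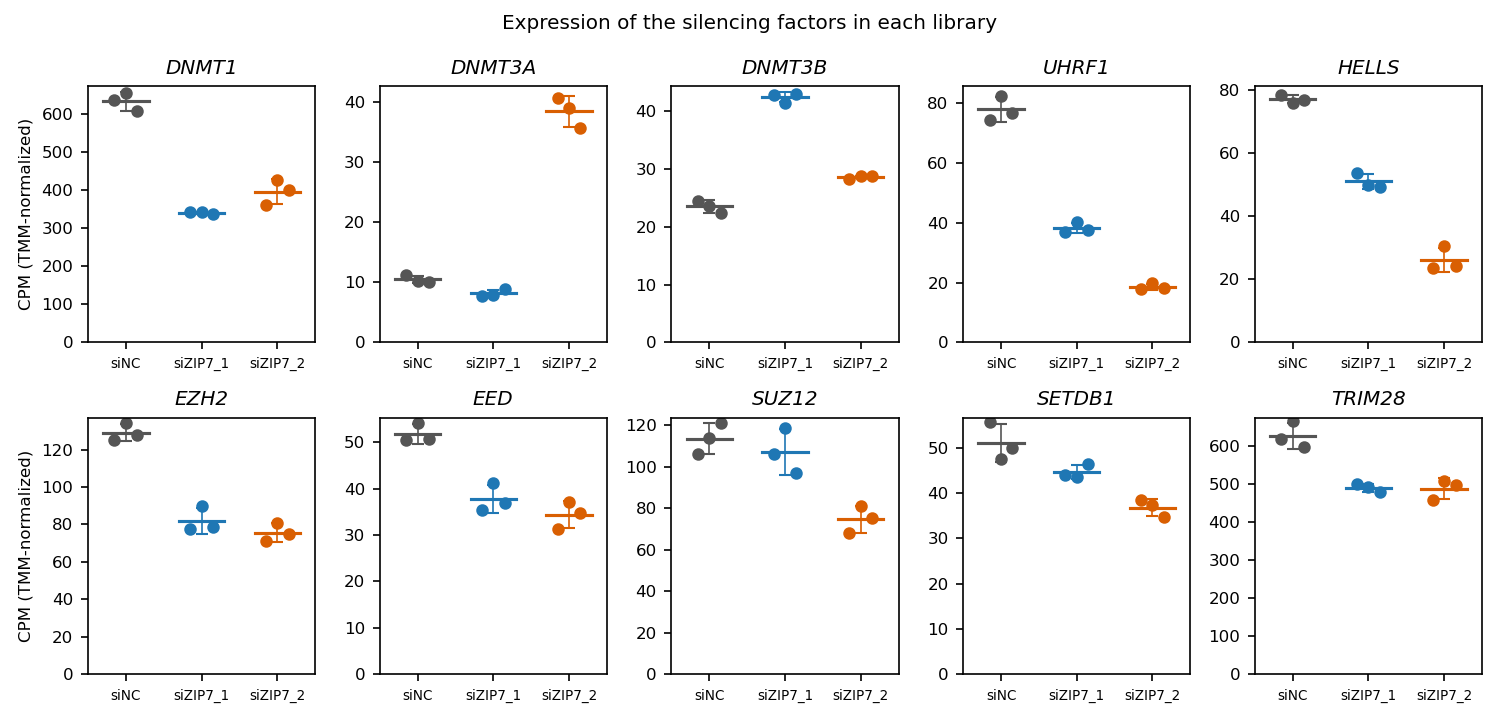
Level of each silencing factor in each library, in TMM-normalized CPM on linear axes that start at 0. Points are the 3 libraries of each group (siNC grey, siZIP7_1 blue, siZIP7_2 orange), the horizontal line is their mean and the error bar 1 SD. UHRF1 steps down from 74.4 to 82.5 CPM with siNC to 17.7 to 19.8 with siZIP7_2, while DNMT3A stands at 35.7 to 40.7 CPM with siZIP7_2 alone.

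**Figure D2:**
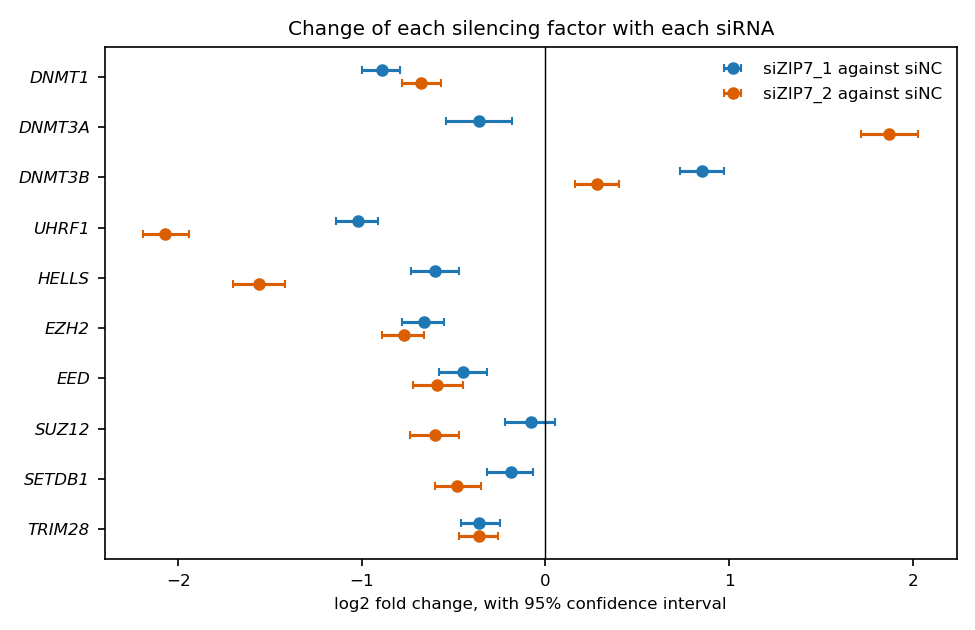
Log2 fold change of each silencing factor with siZIP7_1 (blue) and siZIP7_2 (orange) against siNC, with 95% confidence intervals from the edgeR fit. DNMT3A lies at -0.36 with one siRNA and at 1.87 with the other, and only the interval of SUZ12 with siZIP7_1 crosses 0.

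UHRF1 fell furthest of the 10 with each siRNA. The gene (chromosome 19, 4903080 to 4962154, plus strand, in GENCODE release 29 on GRCh38) encodes the reader of half-methylated CpG sites that recruits DNMT1. Its 3 siNC libraries were at 74.4, 82.5 and 76.8 CPM, the siZIP7_1 libraries at 37, 40.2 and 37.6, and the siZIP7_2 libraries at 17.7, 19.8 and 18.1. The 3 groups did not overlap, and the order was the same for every library. Its RNA fell to 49.2% of the siNC level with siZIP7_1 (log2 fold change -1.02, SE 0.057, adjusted p = 8.29e-16) and to 23.9% with siZIP7_2 (-2.07, SE 0.062, adjusted p = 4.00e-22). It was also lower with siZIP7_2 than with siZIP7_1, by a log2 difference of -1.04 (SE 0.064, adjusted p = 5.34e-15).

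HELLS (chromosome 10, 94501434 to 94613905, plus strand), also known as LSH, followed the same order. It stood at 78.5, 76 and 77 CPM with siNC, at 53.8, 50 and 49.4 after siZIP7_1 and at 23.7, 30.5 and 24.2 after siZIP7_2. Again no library of one group reached into another. HELLS fell to 66.1% with siZIP7_1 (log2 fold change -0.60, SE 0.064, adjusted p = 1.71e-09) and to 34% with siZIP7_2 (-1.56, SE 0.068, adjusted p = 2.91e-18). Between the siRNAs it differed by -0.96 (adjusted p = 2.37e-13). Another gene, AL138759.1, overlaps 4.32% of the exonic length of HELLS.

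DNMT1 (chromosome 19, 10133345 to 10231286, minus strand) did not keep that order. With siNC it was at 637, 657 and 608 CPM, with siZIP7_1 at 343, 343 and 337, and with siZIP7_2 at 362, 427 and 400. All 6 knockdown libraries were far below the 3 control libraries, and the lowest were those of siZIP7_1. DNMT1 fell to 53.8% with siZIP7_1 (log2 fold change -0.89, SE 0.052, adjusted p = 3.13e-15) and to 62.5% with siZIP7_2 (-0.68, SE 0.052, adjusted p = 1.22e-12). The siRNAs differed by 0.22 (SE 0.052, adjusted p = 4.57e-04), a difference that was lost when a change of more than 1.2-fold was asked for.

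The fall of UHRF1 with siZIP7_2 was deeper than that of its partner. Per length, as TPM (reads per exonic base, scaled to a common total), the ratio of UHRF1 to DNMT1 was 0.222 to 0.241 with siNC, 0.205 to 0.223 with siZIP7_1 and 0.0862 to 0.0932 with siZIP7_2. The first 2 ranges overlapped, and the siZIP7_2 libraries stood apart from both. An exact two-sided permutation test of siZIP7_2 against siNC gave p = 0.1, the smallest that 3 against 3 libraries allow (0.113 after Benjamini-Hochberg adjustment over 54 such comparisons of ratios, with either gene length). For a ratio of a pair of genes either length gives the same p, so these comparisons are not independent.

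Of the de novo enzymes, DNMT3B moved against the maintenance factors with both siRNAs, and DNMT3A only with siZIP7_2. DNMT3A (chromosome 2, 25227855 to 25342590, minus strand) was at 11.2, 10.2 and 10.1 CPM with siNC, at 7.76, 7.9 and 8.82 after siZIP7_1 and at 40.7, 39.1 and 35.7 after siZIP7_2. The siZIP7_1 libraries lay just under the control range and the siZIP7_2 libraries far above it. DNMT3A fell to 77.9% with siZIP7_1 (log2 fold change -0.36, SE 0.089, adjusted p = 6.80e-04) and rose 3.66-fold with siZIP7_2 (1.87, SE 0.076, adjusted p = 4.62e-19). The fall did not pass a test against a 1.2-fold change (adjusted p = 0.0871), which the rise did. Between the siRNAs the level differed 4.7-fold (log2 2.23, SE 0.077, adjusted p = 6.45e-21), the widest gap among the 10 genes.

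DNMT3B (chromosome 20, 32762385 to 32809356, plus strand) rose with both siRNAs and more with siZIP7_1. It stood at 24.5, 23.6 and 22.4 CPM with siNC, at 42.8, 41.4 and 43 after siZIP7_1 and at 28.3, 28.7 and 28.7 after siZIP7_2. The groups did not overlap. DNMT3B rose 1.8-fold with siZIP7_1 (log2 fold change 0.85, SE 0.058, adjusted p = 1.31e-13) and 1.21-fold with siZIP7_2 (0.28, SE 0.061, adjusted p = 1.35e-04), and the latter did not pass a test against a 1.2-fold change (adjusted p = 0.248). The siRNAs differed by -0.57 (SE 0.057, adjusted p = 3.36e-10). The catalytically inactive cofactor DNMT3L, which stimulates both enzymes in germ cells, had no read in any library.

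These shifts changed the make-up of DNMT RNA. DNMT1 held 91.3% to 91.9% of the summed TPM of DNMT1, DNMT3A and DNMT3B with siNC, 77.4% to 78.5% with siZIP7_1 and 79.5% to 82.2% with siZIP7_2. The ratio of DNMT3A to DNMT3B was 0.172 ± 0.00487 with siNC, 0.0741 ± 0.00453 with siZIP7_1 and 0.519 ± 0.038 with siZIP7_2 (SD, n = 3 each). DNMT3B was thus the more abundant of the pair per length in every library, and the ratio moved in opposite directions with the siRNAs. With the length of the longest transcript in place of all exons, the ratios were 0.204, 0.0878 and 0.615. Another length scales this ratio by the same factor in every library, so the order could not change.

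The PRC2 core genes fell less than UHRF1 and HELLS did with siZIP7_2. EZH2 (chromosome 7, 148807383 to 148884321, minus strand) was at 125, 134 and 128 CPM with siNC, at 77.3, 89.7 and 78.6 after siZIP7_1 and at 70.9, 80.8 and 75.1 after siZIP7_2. Both knockdown groups were below all control libraries and overlapped each other. EZH2 fell to 63.3% with siZIP7_1 (log2 fold change -0.66, SE 0.056, adjusted p = 1.49e-11) and to 58.5% with siZIP7_2 (-0.77, SE 0.057, adjusted p = 4.22e-13). The difference between the siRNAs was -0.11 (95% confidence interval -0.23 to 0.00, adjusted p = 0.0716).

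EED, the subunit that reads methylated H3K27 (chromosome 11, 86244544 to 86278813, plus strand), moved like EZH2 on a smaller scale. Its libraries ran from 50.5 to 54.2 CPM with siNC, from 35.3 to 41.2 with siZIP7_1 and from 31.3 to 37.1 with siZIP7_2. EED fell to 73.2% (log2 fold change -0.45, adjusted p = 3.31e-07) and 66.6% (-0.59, adjusted p = 2.61e-09) of the siNC level. Between the siRNAs the difference was -0.14 (95% confidence interval -0.27 to -0.00, adjusted p = 0.06), and the ranges overlapped. For both genes this last difference was on the edge of the threshold, and passed it without TMM (-0.17 for EZH2 and -0.19 for EED) and without the low-count filter (-0.16 and -0.18). It also passed when siZIP7_1 replicate 1 or 3 or siZIP7_2 replicate 2 was left out (-0.16, -0.15 and -0.16 for EZH2, -0.19, -0.16 and -0.20 for EED), and for EED without siNC replicate 1 (-0.14).

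SUZ12 (chromosome 17, 31937018 to 32001045, plus strand), the subunit that holds the complex together, fell with siZIP7_2 and had no passing difference with siZIP7_1. It was at 106, 114 and 121 CPM with siNC, at 106, 119 and 96.8 after siZIP7_1 and at 67.9, 80.9 and 75.5 after siZIP7_2. The siNC and siZIP7_1 libraries overlapped, and all siZIP7_2 libraries lay below both. With siZIP7_2 it fell to 65.8% (log2 fold change -0.60, SE 0.065, adjusted p = 1.91e-09), and the siRNAs differed by -0.52 (SE 0.065, adjusted p = 3.07e-08). With siZIP7_1 the log2 fold change was -0.08 (95% confidence interval -0.22 to 0.05, adjusted p = 0.243), a range that leaves room for a fall to 86.1% of control. Without siZIP7_1 replicate 2 it was -0.16 and passed (adjusted p = 0.0154). A transcribed pseudogene of SUZ12, SUZ12P1 (chromosome 17, 30709299 to 30790908), had 156 to 161 reads with siNC, 112 to 173 with siZIP7_1 and 267 to 312 with siZIP7_2, so a small part of the reads of the pair may be assigned to the wrong copy.

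The ratio of subunits moved accordingly. SUZ12 stood at 0.586 to 0.649 of the TPM of EZH2 with siNC, at 0.85 to 0.95 with siZIP7_1 and at 0.662 to 0.694 with siZIP7_2. EED stood at 0.254 to 0.26, 0.295 to 0.303 and 0.285 to 0.298 of EZH2. All 6 knockdown libraries were therefore above the control range in both ratios. EZH1, the paralogue that takes the place of EZH2 in non-dividing cells, was at 41.4 ± 2.66 CPM with siNC, 66.2 ± 1.34 with siZIP7_1 and 38.1 ± 1.49 with siZIP7_2 (SD, n = 3). It rose with siZIP7_1 (log2 fold change 0.68, adjusted p = 5.38e-12), and with siZIP7_2 its log2 fold change was -0.12 (adjusted p = 0.0541). EZH2 made up 81.4% to 83.6% of the summed TPM of both paralogues with siNC, 64.2% to 68% with siZIP7_1 and 74.1% to 77.3% with siZIP7_2, with no overlap between groups.

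**Figure D3:**
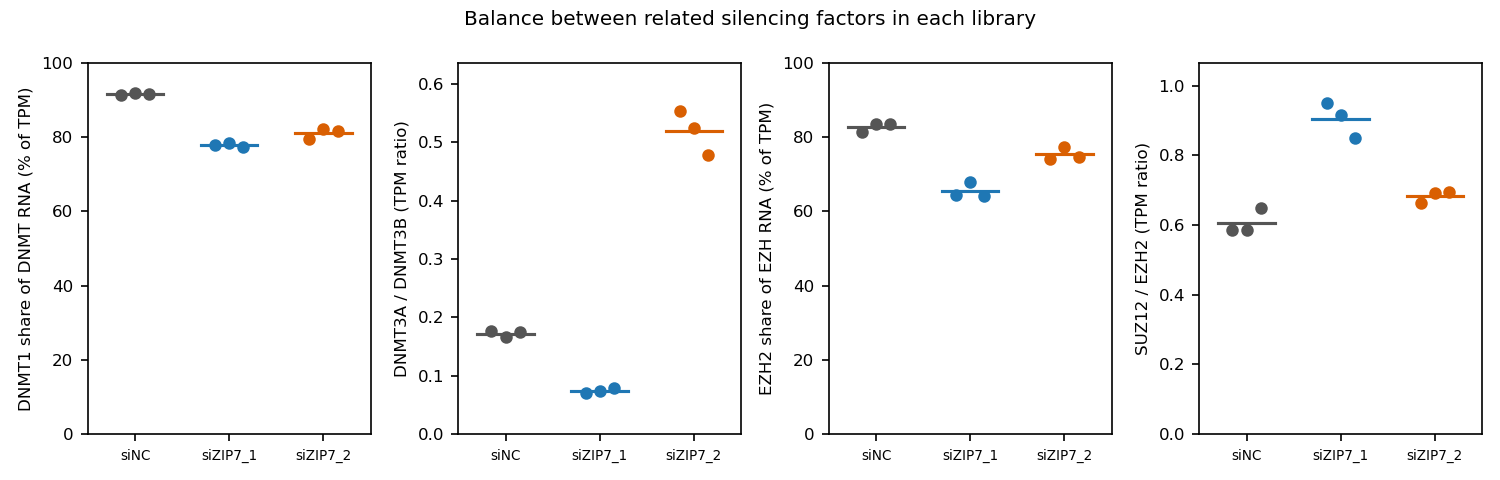
Balance between related factors in each library, from TPM on exonic lengths, on axes that start at 0. Points are libraries and lines group means: DNMT1 as a share of DNMT1, DNMT3A and DNMT3B, the ratio of DNMT3A to DNMT3B, EZH2 as a share of EZH1 and EZH2, and the ratio of SUZ12 to EZH2. The DNMT3A to DNMT3B ratio is 0.172 on average with siNC, 0.0741 with siZIP7_1 and 0.519 with siZIP7_2.

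The H3K9 factors TRIM28 and SETDB1 were lower with both siRNAs. TRIM28 (chromosome 19, 58544091 to 58550722, plus strand) was at 620, 665 and 597 CPM with siNC, at 499, 492 and 478 after siZIP7_1 and at 457, 509 and 497 after siZIP7_2. Both knockdown groups lay below the controls and overlapped. It fell to 78.1% with siZIP7_1 (log2 fold change -0.36, SE 0.05, adjusted p = 3.14e-07) and to 77.7% with siZIP7_2 (-0.36, SE 0.05, adjusted p = 1.82e-07). The siRNAs differed by -0.01 (95% confidence interval -0.11 to 0.10, adjusted p = 0.901), and the sign of that difference turned under other scalings.

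SETDB1 (chromosome 1, 150926263 to 150964744, plus strand) was at 55.7, 47.6 and 50.1 CPM with siNC, at 44, 43.6 and 46.5 after siZIP7_1 and at 38.4, 37.3 and 34.7 after siZIP7_2. The 3 ranges did not overlap, though one siNC library, at 47.6 CPM, was close to the siZIP7_1 range. SETDB1 fell to 71.9% with siZIP7_2 (log2 fold change -0.48, SE 0.061, adjusted p = 4.11e-08) and to 87.4% with siZIP7_1 (-0.19, SE 0.059, adjusted p = 0.00466). The siRNAs differed by -0.28 (SE 0.061, adjusted p = 1.27e-04). The call with siZIP7_1 was lost without siNC replicate 1 (-0.13, adjusted p = 0.0665) and without TMM (-0.11, adjusted p = 0.125), and neither it nor the difference between the siRNAs passed a test against a 1.2-fold change. CERS2 overlaps 13.4% of its exonic length, where reads may have gone uncounted or to the wrong gene, since the strand setting of the counting is not given in the sources used here.

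Per length, TRIM28 was the most abundant of the 10 in every group (617 ± 32.1, 517 ± 14.4 and 471 ± 32 TPM, SD, n = 3) and DNMT1 the next (257 ± 9.38, 148 ± 2.45 and 158 ± 15 TPM). With siNC, EZH2 followed at 113 ± 3.52 TPM, SUZ12 at 68.9 ± 4.24 and UHRF1 at 60 ± 2.99. HELLS, EED and SETDB1 came next at 30.1 ± 0.602, 29.2 ± 1.08 and 28.6 ± 2.41 TPM, and their ranges overlapped. DNMT3B followed at 20.1 ± 0.93 and DNMT3A was lowest at 3.46 ± 0.207 TPM. With siZIP7_1, EZH2 (73.6 to 83.1 TPM) and SUZ12 (63.1 to 76.1) overlapped, and DNMT3B at 39 ± 1.33 TPM was above UHRF1 at 31.7 ± 0.949. With siZIP7_2, UHRF1 was at 14 ± 1.02 TPM, next to DNMT3A at 12.5 ± 0.777, while HELLS at 8.96 to 11.8 TPM overlapped DNMT3A at 11.6 to 13. The middle of this order depends on the length used. With the longest transcript EED stood at 54.5 ± 1.87 TPM with siNC, above HELLS at 45.1 ± 0.982 and close to UHRF1 at 52.7 ± 2.51.

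Across the 9 libraries, UHRF1 and HELLS had a Pearson r of 0.98 and EZH2 and EED one of 0.99, in log2 CPM. DNMT1 and DNMT3B had an r of -0.86, and DNMT3A and SUZ12 one of -0.91. These describe 3 groups of 3 libraries and carry no test. The genes most like UHRF1 among 9747 others with a mean of at least 10 CPM were PAICS (r = 0.9990), B3GALNT2 (0.9986) and PLK1 (0.9985). Those most like DNMT3A were TSPYL2 (0.9988), PHF21A (0.9980) and TNFAIP2 (0.9979), and those most like DNMT3B were ZNF592 (0.9969), LSR (0.9965) and CBFA2T2 (0.9959). For DNMT1 they were SF3A3 (0.9987), HNRNPUL1 (0.9967) and PDCD11 (0.9962), and for HELLS KNTC1 (0.9973), DOCK2 (0.9961) and FECH (0.9958). FAM136A (0.9973), CENPN (0.9962) and HNRNPM (0.9955) were most like EZH2, and PABPC1 (0.9973), RPL4 (0.9900) and EZH2 (0.9890) most like EED. For SUZ12 they included OXR1 (0.9933) and NUF2 (0.9880), for SETDB1 they were NVL (0.9838), ZNF839 (0.9808) and GLI4 (0.9789), and for TRIM28 YARS (0.9905), PSMD3 (0.9896) and NOC2L (0.9879). With 3 groups such values are common, since 931 genes had an r of at least 0.95 with UHRF1 and 616 with DNMT3A, but only 68 with SETDB1.

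Genes of S phase and DNA replication, a list of 39 that shares no gene with the 10, moved in the same direction as the maintenance factors. With siZIP7_1, 37 of 39 fell, with a median log2 fold change of -0.80, and E2F2 (0.18, adjusted p = 0.0668) and E2F8 (-0.19, adjusted p = 0.0547) did not pass. With siZIP7_2 all 39 fell, with a median of -1.39, and 30 were lower and 5 higher with siZIP7_2 than with siZIP7_1. Of all genes tested, 35.9% were lower with siZIP7_1 and 39.3% with siZIP7_2. The summed level of the 39 was 5134 to 5420 CPM with siNC, 2960 to 3135 with siZIP7_1 and 2215 to 2528 with siZIP7_2. The largest falls by the naming rule were those of CCNE1, which drives entry into S phase (11.5 to 4.64 and 2.06 CPM, means), and of GINS4 and GINS1, parts of the replicative helicase (112 to 49.8 and 24.7, and 51.6 to 26.2 and 12 CPM).

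Placed among these 39 genes, UHRF1 was near the bottom with both siRNAs, with 7 of them below it with siZIP7_1 and 6 with siZIP7_2. HELLS had 28 and 15 below it. DNMT1 changed places, with 16 below it with siZIP7_1 and 34 with siZIP7_2. EZH2 had 27 and 32, EED 32 and 35, and DNMT3B all 39 in both. PCNA, the clamp on which DNMT1 travels, was at 184 ± 5.89 CPM with siNC, 148 ± 3.83 with siZIP7_1 and 54 ± 4.25 with siZIP7_2, and the proliferation marker MKI67 at 579 ± 45.2, 318 ± 1.76 and 447 ± 63.3 (SD, n = 3). The ratio of DNMT1 to PCNA in TPM therefore went from 0.489 to 0.54 with siNC to 0.338 to 0.353 with siZIP7_1 and 1.09 to 1.12 with siZIP7_2. The part of proliferation in the levels of the silencing factors was not tested.

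**Figure D4:**
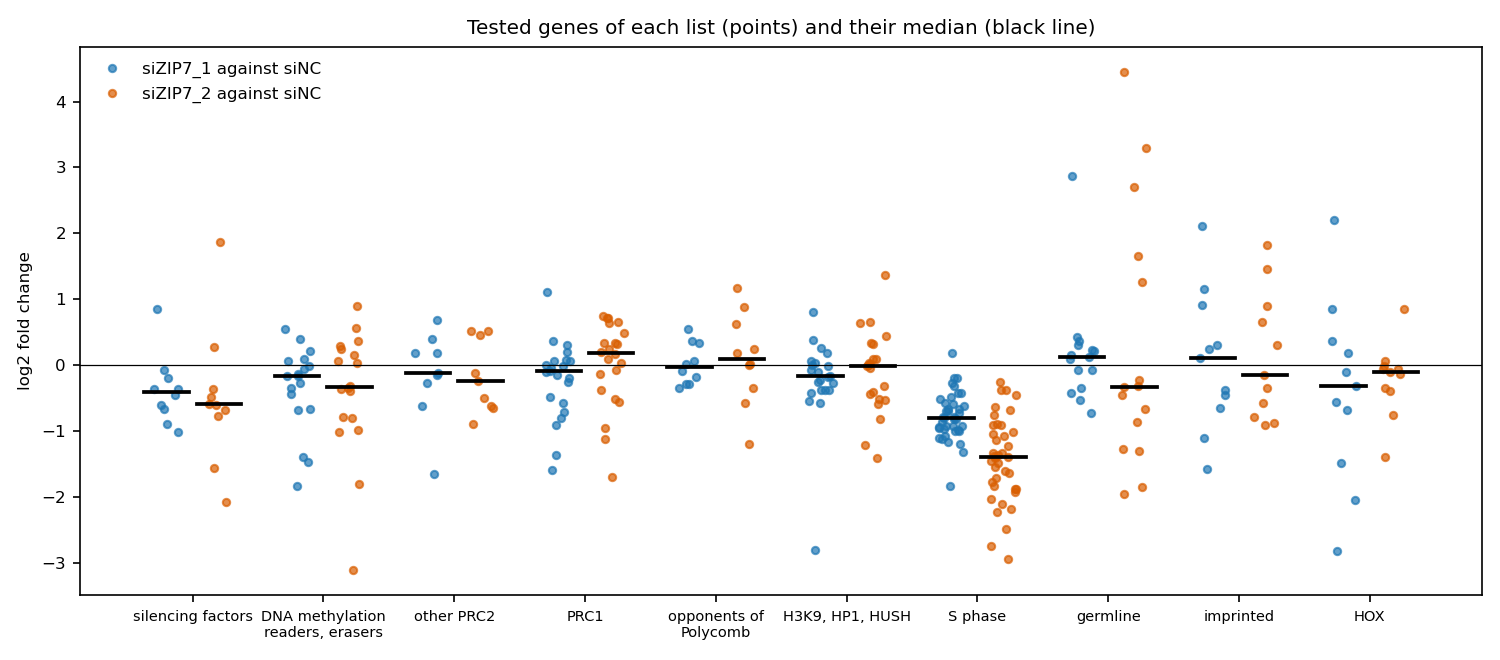
Log2 fold change of every tested gene of each list with siZIP7_1 (blue) and siZIP7_2 (orange) against siNC, with the median as a black line. The S phase list has medians of -0.80 and -1.39, and its 1 gene above 0 is E2F2 with siZIP7_1, at 0.18, which did not pass the test.

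Other genes of the same pathways moved both ways. Of 19 readers, erasers and cofactors of DNA methylation, 18 were tested. With siZIP7_1, 11 fell and 3 rose (median -0.16), and with siZIP7_2, 10 fell and 6 rose (median -0.32). Calls thus covered 77.8% and 88.9% of them, against 70.7% and 77.8% of all genes tested. CDCA7, the partner that activates HELLS, had larger log2 fold changes than any of the 10 factors, and fell from 36.4 ± 0.987 CPM with siNC to 10.2 ± 0.461 with siZIP7_1 and 4.19 ± 0.307 with siZIP7_2 (log2 fold changes -1.83 and -3.11, SE 0.071 and 0.083, adjusted p = 2.00e-19 and 2.99e-23). Its relative CDCA7L fell from 125 to 78.6 and 36 CPM, and TET1, which oxidizes methylcytosine, from 1.89 to 0.713 and 1.09 CPM. IDH1, whose product feeds the TET enzymes, rose from 52.9 to 77.6 and 62.8 CPM. The methyl-CpG binding proteins MBD1 (63.2 to 73.7 and 93.8 CPM) and MBD4 (25.6 to 33.8 and 28.3) rose as well.

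Of 10 further PRC2 genes, 9 were tested. With siZIP7_1, 5 fell and 4 rose (median -0.12), and with siZIP7_2, 5 fell and 3 rose (median -0.24). As shares these were 100% and 88.9%, against 70.7% and 77.8% of all genes tested. PHF19, an accessory subunit that helps PRC2 onto chromatin, fell from 303 ± 13.4 CPM to 96.9 ± 3.81 and 197 ± 9.24 (log2 fold changes -1.65 and -0.62, adjusted p = 8.33e-22 and 1.90e-12). AEBP2 fell from 37.5 to 24.3 and 23.9 CPM. PHF1 and MTF2, the relatives of PHF19, rose with both siRNAs, from 92.2 to 104 and 132 CPM and from 38 to 49.8 and 52.3 CPM. Of the histone-binding subunits, RBBP7 fell from 165 to 151 and 117 CPM with both siRNAs. RBBP4 rose from 116 to 132 CPM with siZIP7_1 (log2 fold change 0.19, adjusted p = 6.52e-04) and fell to 61.8 with siZIP7_2 (-0.90, adjusted p = 5.50e-16).

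PRC1, the second Polycomb complex, which ubiquitinates histone H2A, was represented by 22 genes, all tested. With siZIP7_1, 9 fell and 4 rose (median -0.10), while with siZIP7_2, 12 rose and 7 fell (median 0.19). That is 59.1% and 86.4% of these genes, against 70.7% and 77.8% of all genes tested. CBX7 rose from 22.4 to 48.4 and 37.5 CPM with both siRNAs, as did CBX8 (19.9 to 24.6 and 28) and BCOR (36.7 to 47.3 and 60). CBX6 fell from 178 to 149 and 54.7 CPM, PHC2 from 364 to 194 and 168, and PCGF6 from 23 to 7.65 and 16.1. Of 10 genes that oppose Polycomb, 4 fell and 3 rose with siZIP7_1 (median -0.03) and 3 fell and 5 rose with siZIP7_2 (median 0.10). These calls made up 70% and 80% of the list, near the shares of all genes. ASXL1 rose from 382 to 485 and 705 CPM and BAP1, the H2A deubiquitinase it works with, from 151 to 196 and 172. USP16 fell from 76 to 62.2 and 33.2 CPM and SMARCA4 from 457 to 360 and 308.

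Of 23 genes of H3K9 methylation, heterochromatin protein 1 (HP1) and the HUSH complex, 22 were tested. With siZIP7_1, 12 fell and 3 rose (median -0.17), and with siZIP7_2, 9 fell and 6 rose (median -0.01). The share that passed was 68.2% with each siRNA, below the 70.7% and 77.8% of all genes tested. CBX5, which encodes HP1 alpha, fell from 227 ± 5.3 CPM to 32.6 ± 1.66 with siZIP7_1 and 98.1 ± 5.66 with siZIP7_2 (log2 fold changes -2.80 and -1.21, adjusted p = 3.00e-26 and 7.45e-19). MORC2 and TASOR, both of the HUSH pathway, fell from 62.4 to 51.8 and 23.5 CPM and from 89.5 to 69.4 and 51 CPM. MORC2-AS1 overlaps 25.8% of the exonic length of MORC2. Other HUSH genes did not fall. MPHOSPH8 did not pass with siZIP7_1 (log2 fold change -0.02, adjusted p = 0.752) and rose with siZIP7_2 (0.44, adjusted p = 2.78e-08). PPHLN1 passed with neither (-0.08 and 0.04, adjusted p = 0.181 and 0.544).

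Genes with few or no reads with siNC were then counted. The word silent stands here for read counts only, as no chromatin mark was measured. A gene was called silent with siNC when each of its 3 siNC libraries had at most 3 reads, which was so for 39191 of 58395 genes, 6049 of them coding for protein. It was said to appear when each library of a knockdown group had at least 10 reads. With siZIP7_1, 83 genes appeared (40 protein-coding), with siZIP7_2, 230 appeared (120 protein-coding), and 17 appeared with both. The reverse count, of genes with at least 10 reads in each siNC library and at most 3 in each knockdown library, was 48 with siZIP7_1, 11 with siZIP7_2 and 4 with both. The pools differ in size, and as shares 0.212% of 39191 silent genes appeared with siZIP7_1 and 0.329% of the 14574 genes with at least 10 reads in each siNC library fell silent, against 0.587% and 0.0755% with siZIP7_2. Whether these counts follow the levels of the silencing factors was not tested. The counts depend on the floor, since with no read allowed in siNC 8 and 12 genes appeared, and with at least 20 reads asked for 30 and 71.

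Gene classes known to be held silent by DNA methylation or Polycomb were looked up among them. Of 43 germline and cancer-testis genes, 23 were silent with siNC, and 1 of these appeared, SYCP3 with siZIP7_2. SYCP3, a part of the meiotic chromosome axis, had 2, 0 and 1 reads with siNC, 1, 1 and 2 with siZIP7_1 and 10, 12 and 12 with siZIP7_2, just at the limit of 10. CHPT1 overlaps 14.8% of its exonic length. None of 11 silent imprinted genes (of 24) and none of 24 silent HOX genes (of 39) appeared with either siRNA. The overall share was low as well, at 0.661% of protein-coding silent genes with siZIP7_1 and 1.98% with siZIP7_2, and nothing particular to these classes can be read from them. On the marker lists, 2 more genes appeared with siZIP7_2, named after their values were seen. ESR1, the estrogen receptor, had 3, 2 and 2 reads with siNC, 9, 6 and 6 with siZIP7_1 and 15, 14 and 12 with siZIP7_2, and CDH5, an endothelial cadherin, had 0, 0 and 1, then 5, 1 and 6, then 31, 41 and 33. At this depth a gene with fewer than 10 reads in a library could not be counted.

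Among genes of these classes that passed the filter on low counts, changes went both ways. Of 15 tested germline genes, 4 rose and 2 fell with siZIP7_1 and 4 rose and 8 fell with siZIP7_2 (medians 0.13 and -0.33). Thus 40% and 80% passed, against 70.7% and 77.8% of all genes tested. The 4 that rose with siZIP7_2 were TEX14, PIWIL2, SYCP3 and STK31, named after their values were seen. SYCP3 is the gene counted above as silent with siNC, and it passed the filter only through the group where it was high. MAGEB2, which rose with siZIP7_1, had 15, 16 and 29 reads there, against at most 5 with siNC and 8 with siZIP7_2. It too passed only through that group, so the filter in part fixed these 2 rises. TEX14, which keeps the bridges between germ cells open, had 26, 27 and 26 reads in the siNC libraries, 30, 31 and 34 in those of siZIP7_1 and 641, 643 and 519 in those of siZIP7_2 (log2 fold change 4.45, SE 0.13, adjusted p = 4.14e-22 against siNC, and 4.35, adjusted p = 1.40e-22, between the siRNAs). PIWIL2, which binds piRNAs, went from 0.436 to 1.03 CPM with siNC to 3.88 to 4.19 with siZIP7_2 (log2 fold change 2.70, adjusted p = 9.58e-12). DPPA4 and SSX1 fell with both siRNAs, from 3.18 to 1.91 and 0.811 CPM and from 12.5 to 8.67 and 5.08 CPM. MAGEC1, a cancer-testis antigen already expressed in control cells, rose from 79.3 to 102 CPM with siZIP7_1 (log2 fold change 0.37, adjusted p = 1.83e-07) and fell to 22 with siZIP7_2 (-1.85, adjusted p = 8.00e-22).

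Of 11 tested imprinted genes, 5 rose and 5 fell with each siRNA (medians 0.11 and -0.15). This was 90.9% with each, against 70.7% and 77.8% of all genes tested. PEG10, a gene of retrotransposon origin, rose from 250 to 1082 CPM with siZIP7_1 (log2 fold change 2.11, SE 0.048, adjusted p = 6.98e-25) and fell to 133 with siZIP7_2 (-0.91, SE 0.048, adjusted p = 1.72e-16). BLCAP (87.7 to 195 and 139 CPM) and MKRN3 (5.65 to 6.98 and 10.5) rose with both, and PHLDA2 (124 to 41.7 and 96.9), SGCE (51.1 to 32.6 and 27.8) and MEST (29.2 to 22.4 and 19.6) fell with both. Of 11 tested HOX genes, 2 rose and 3 fell with siZIP7_1 and 1 rose and 3 fell with siZIP7_2 (medians -0.32 and -0.11). At 45.5% and 36.4%, these shares were below those of all genes. HOXD1 rose from 4.63 to 21.3 and 8.37 CPM, though other genes overlap 58.1% of its exonic length. HOXB3 and HOXB4 fell, from 5.11 to 0.728 and 3.03 CPM and from 2.21 to 0.782 and 0.841 CPM.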

How the data were processed

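RNA-seq was done on 9 libraries of MDA-MB-231 cells, 3 per siRNA. The authors deposited raw read counts per Ensembl gene, with no normalization. The submitters' processing notes list Trim Galore 0.4.1, FastQC 0.11.2, STAR, HTSeq 0.6.1 and DESeq2 1.16.1; the build and strand setting used are not given in the sources used here. Reads on no gene (7.43% to 11.5%) or on several genes (2.66% to 2.91%) were left out, and no multiply aligned reads were listed, so recent copies of a gene are undercounted.

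Groups came from the labels. GENCODE release 29 (GRCh38) gave symbols, positions and lengths for 58275 of 58395 identifiers. Counts were analysed with edgeR 4.0.16 in R 4.3.3: filterByExpr (16761 genes), TMM, one quasi-likelihood fit of 3 groups (6 residual degrees of freedom) and Benjamini-Hochberg adjustment at 0.05. The SE is the log2 fold change over the square root of F, and intervals use it. TPM was computed from exonic lengths. The floor of 3 counts is 0.124 CPM in the smallest library; floors cover counting error only. The biological coefficient of variation was 4.5%. A chi-squared value per gene was 2.47 to 6.68 for pairs of libraries within groups and 160 to 301 for pairs across groups, and none was a repeat of another.

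The members and lists were chosen with earlier results of these data known. By rule the text names every member, SLC39A7, EZH1, RBBP4, RBBP7, PCNA and MKI67, up to 3 genes per direction and list with the largest mean change that passed in that direction with both siRNAs at a mean of at least 1 CPM, listed genes among the silent genes that appear, and the 3 genes most correlated with each member. A marker and a correlated gene are not reported here. CDCA7 and other list genes came from that rule. TEX14, PIWIL2, STK31, MAGEC1, MAGEB2, PEG10, ESR1, CDH5, MPHOSPH8 and PPHLN1 were added after their values were seen. On simulated counts of 16297 genes, the steps recovered 77.1% of 1.5-fold and 88.9% of 2-fold changes for siZIP7_1, with 5.81% of calls false. For siZIP7_2 they recovered 82.3% and 87.9%, with 7.26% false. Only 96 genes with a 1.5-fold and 99 with a 2-fold change were planted, the same for both siRNAs. In the data 70.7% and 77.8% of genes passed against siNC, so the simulation does not give the rates for changes this broad. Alternatives were DESeq2 1.42.0, its size factors in edgeR, upper-quartile scaling, no TMM, no filter, at least 10 counts in every library, only the groups compared, the replicate number as a block, a 1.2-fold threshold (glmTreat), each library left out, other floors for silent genes, and the longest transcript as length. Promoters are RefSeq's, on GRCh38.p14.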

Additional observations from a re-analysis of the deposited data

Results flagged for a closer look

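For 7 of the 10 silencing factors the effects of the 2 siRNAs differed from each other in the edgeR contrast of the siRNAs, as they did for 78.7% of all genes. The log2 difference was 2.23 for DNMT3A, which fell with siZIP7_1 and rose with siZIP7_2. It was 0.22 for DNMT1, -0.57 for DNMT3B, -1.04 for UHRF1, -0.96 for HELLS, -0.52 for SUZ12 and -0.28 for SETDB1. SLC39A7 itself was lower with siZIP7_2 than with siZIP7_1, at 53.8% of its level, and whether the depth of the knockdown or other targets of either siRNA bear on these differences was not tested. Groups of 3 libraries are too small to look for single libraries that stand apart.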

How the results depend on the processing

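The number of silencing factors that passed with siZIP7_1 was 9, and 7 to 9 under the other settings; with siZIP7_2 it was 10, and 9 to 10; between the siRNAs it was 7, and 5 to 9. With one library left out these were 8 to 10, 10 and 7 to 9. Of the values for single factors, the sign turned for TRIM28 between the siRNAs, to 0.028 with DESeq2 and with its size factors, 0.073 with upper-quartile scaling, 0.044 with at least 10 counts in every library, 0.014 with only the groups compared and between -0.038 and 0.040 with one library left out (0.040 without siZIP7_2 replicate 1), and for SUZ12 with siZIP7_1, to 0.0030 without TMM. Upper-quartile scaling moved the median of all genes with siZIP7_2 to 0.104. Against a 1.2-fold change, calls with siZIP7_1 dropped to 9 among the DNA methylation genes, 4 among the further PRC2 genes, 4 among opponents of Polycomb and 9 among the H3K9 genes. Such a test is stricter by construction, and its share over all genes is not given here. The drops therefore show nothing particular to these lists. Genes that appear with siZIP7_1, siZIP7_2 and both were 8, 12 and 0 when silent meant 0 counts, and 30, 71 and 4 at 20 counts. Genes that fall silent were 2, 0 and 0, and 19, 1 and 0. Both rules are stricter by construction. With one library left out, 83 to 115, 230 to 297 and 17 to 26 appeared and 48 to 65, 11 to 20 and 4 to 6 fell silent, since fewer libraries have to pass. The 26 came without siNC replicate 1, and the 20 without siNC replicate 2 or siZIP7_2 replicate 1.

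Replicate numbers did not pair the libraries, as same-numbered libraries of different groups correlated between -0.05 and 0.08 in their deviations and 3 of 9 correlated best with their own number. With the replicate block, 9 factors passed with siZIP7_1, 10 with siZIP7_2 and 9 between the siRNAs, EZH2 (adjusted p = 0.0348) and EED (0.0276) being added. With 3 libraries a group, an exact two-sided permutation test between a pair of groups cannot go below a p of 0.1.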
